A study of Mus musculus with 48 samples.

Results

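The step from 48 h to day 4 of V580 induction was described from 5 bulk RNA-seq libraries, 2 labelled V580_48h and 3 labelled V580_D4. They were chosen by their labels alone and are 5 of the 48 samples of the series and 5 of the 31 libraries in the table of FPKM values (fragments per kilobase of gene, scaled to sequencing depth). V580 is vitamin C (Vc) given together with AM580, a synthetic agonist of the retinoic acid receptor alpha. The starting cells were female C57BL/6 embryonic stem cells (ESCs) that had been grown on mouse embryonic fibroblast feeders in 2i and LIF, and the study used V580 to drive them towards gonadal somatic cell-like cells (GSCLCs). Both groups carried both compounds and differed by time in culture. The study describes the sequencing of the 24 h and 48 h cells apart from that of the induction days. Whether both sets were prepared together is not stated, so a difference between the sets cannot be told apart from time. No day 4 library without compounds was analysed here, so time in culture and longer exposure to V580 cannot be told apart either. Where a level without compounds is given, it comes from the 2 Con_48h libraries. Feeders were removed before induction by their different adherence to the dish. The methods describe a magnetic separation by SSEA1, a surface marker of ESCs, but do not say whether these libraries came from separated cells. All libraries hold mixed cells, so more cells of a kind and more RNA per cell cannot be told apart. No label names separate cultures for the replicates. The p-values therefore measure only the spread between replicate libraries, pooled over the 16 V580 bulk libraries, and this spread may be technical.

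Retinoic acid enters the nucleus, binds receptors of the RAR and RXR families on DNA, and switches on a set of direct targets that includes Cyp26a1, Rarb and the 3′ ends of the Hox clusters. The enzymes it induces degrade retinoic acid, which closes a feedback loop. Vitamin C is a cofactor of iron-dependent hydroxylases, among them the TET enzymes that oxidise methylated cytosine and the enzymes that mature collagen. ESCs keep their state through Pou5f1, Sox2 and Nanog, and lose those transcripts when they differentiate.

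The 5 libraries were deep and close within each group. The fragment totals rebuilt from the FPKM steps were 20.0 M and 18.27 M at 48 h and 22.77 M, 24.74 M and 23.97 M at day 4. The root mean square difference of log2(FPKM + 1) was 0.107 between the 48 h libraries and 0.101 to 0.116 between the day 4 libraries, and rose to 0.748 to 0.761 between the groups. Of 10742 genes tested with limma, 1855 passed an adjusted p below 0.05 and a 2-fold change (17.3%), 1116 of them higher at day 4 (10.4%) and 739 lower (6.88%). Without the 2-fold limit 9047 genes passed (84.2%; 44.2% higher and 40.1% lower), so the fold limit and not the p-value set most calls. The median log2 difference over all genes tested was 0.031. When each library was set to the same median, this median became -0.078 and the split of calls turned to 922 higher and 967 lower. A rise or fall in what follows means a gene past both limits, and log2 differences are on the log2(FPKM + 1) scale, which understates the change of genes near 0.

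The largest rise was that of Igfbp5 and the largest fall that of Lefty1. Igfbp5, a secreted binding protein of insulin-like growth factors on chromosome 1 (72857932 to 72874884, minus strand, GRCm38), was at 0.233 and 0.201 FPKM at 48 h and at 117, 105 and 112 FPKM at day 4. The groups did not overlap, and its log2 difference of 6.53 (SE 0.0553, adjusted p = 5.43e-21, limma) was the largest among the rises. Krt19, an epithelial keratin, stood at 2.56 and 2.54 FPKM and then at 158, 144.1 and 131 FPKM. Gas1, a cell surface protein that takes part in Hedgehog signalling, went from a mean of 5.77 to 202.5 FPKM. Nr2f2, an orphan nuclear receptor known from mesenchymal and interstitial cells, went from 0.111 to 21.9 FPKM and Zfp503 from 1.72 to 54.8 FPKM. The remaining members of the 10 largest rises were Fos, Fosb, Cyp26b1, Ripply3 and Aldh1a7.

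Lefty1, a secreted inhibitor of Nodal on chromosome 1, fell furthest. It was read at 344 and 357 FPKM at 48 h and at 2.00, 2.07 and 2.09 FPKM at day 4, a log2 difference of -6.85 (SE 0.106, adjusted p = 3.08e-18, limma). Lefty1 was at a mean of only 2.11 FPKM at 24 h in V580 and at 98.0 FPKM in Con_48h, so among the V580 libraries at 24 h, 48 h, day 4 and day 6 its level was high at 48 h alone. Tdgf1, the Nodal co-receptor, was at 256 and 257 FPKM and then between 4.42 and 5.15 FPKM. Gdf3, a TGF-beta family ligand, went from a mean of 30.96 to 0.179 FPKM, and Fgf4, the growth factor that ESCs secrete, from 23.1 to 0.105 FPKM. Pou5f1, Upp1, Etv4, Dok2 and Cbr3 were also among the 10 largest falls, and in none of these genes did a day 4 library reach the range of the 48 h libraries.

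**Figure D1:**
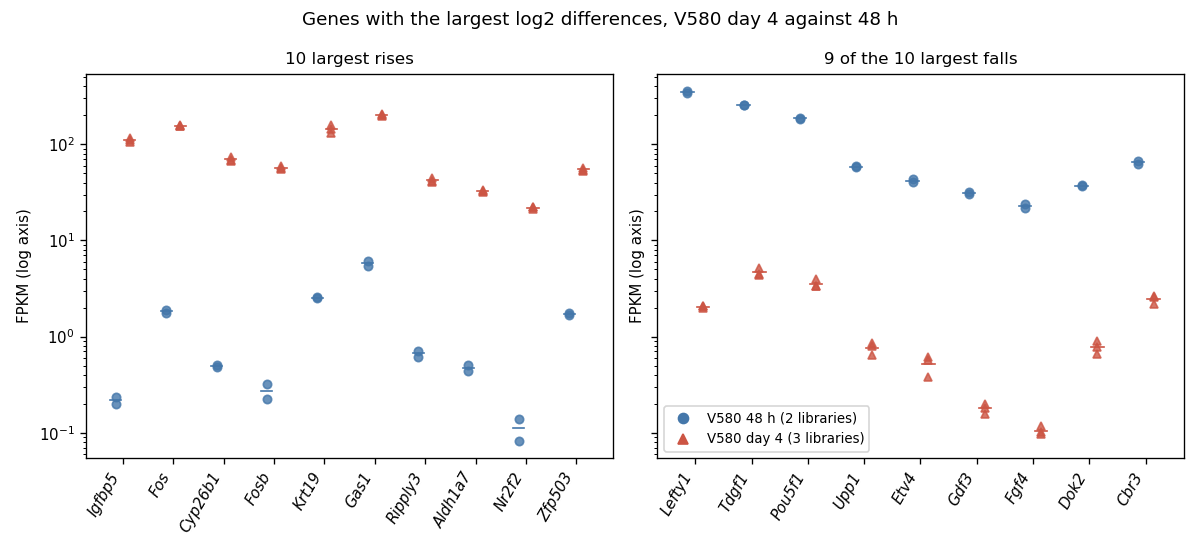
FPKM on a log axis of the 10 genes with the largest rise and 9 of the 10 with the largest fall, one point per library (circles, 2 V580 48 h libraries; triangles, 3 V580 day 4 libraries), with bars at the group means. The groups do not overlap for any of the 19 genes; Lefty1 drops from a mean of 350.5 to 2.05 FPKM and Igfbp5 climbs from 0.217 to 111 FPKM.

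The core pluripotency list was the one list in which every tested gene fell. All 7 core genes of the list that the table holds fell, against 6.88% lower among all genes, with a median log2 difference of -2.83. Pou5f1, the POU factor on chromosome 17 (35506018 to 35510772, plus strand) that defines pluripotent cells, was at 189 and 185 FPKM at 48 h and at 3.99, 3.34 and 3.34 FPKM at day 4 (log2 difference -5.37, SE 0.0759, adjusted p = 1.17e-18, limma). The Con_48h mean of Pou5f1 was 456 FPKM. Nanog was at 17.4 and 17.2 FPKM and then at 1.16, 0.811 and 1.19 FPKM, while Sox2 kept a higher remnant, 43.5 and 44.1 FPKM against 8.11, 7.47 and 8.01 FPKM. The smallest falls were those of Lin28a, an RNA-binding protein that blocks let-7 processing, from 185 to 81.2 FPKM, and of Sall4, from 43.2 to 19.2 FPKM. Both fell below 2-fold when quantile normalization was used, with log2 differences of -0.81 for Lin28a and -0.93 for Sall4.

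Naive state genes fell in 7 of 12 cases, 2 rose and 3 did not pass, and the median was -1.59. Among all genes 6.88% fell and 10.4% rose. Those that did not pass were Klf5, Tfcp2l1 and Tdh, with log2 differences of 0.21, -0.58 and -0.15. Dppa5a, one of the most abundant transcripts of ESCs, was at 1880 and 1785 FPKM and then at 202, 178 and 181 FPKM. Esrrb went from a mean of 7.94 to 0.600 FPKM, Dppa3 from 7.83 to 0.632 FPKM and Klf2 from 26.4 to 7.08 FPKM. Klf4 and Tbx3 moved the other way: Klf4 was at 2.61 and 2.64 FPKM at 48 h and at 8.53, 9.19 and 10.4 FPKM at day 4, and Tbx3 at 1.85 and 1.73 FPKM and then between 6.88 and 6.92 FPKM. At 24 h in V580 the means of Klf4 and Tbx3 had been 13.4 and 5.95 FPKM. Both were thus lowest at 48 h among 24 h, 48 h and day 4. Both genes also function outside pluripotent cells, Klf4 in epithelia and Tbx3 in mesoderm. Among genes of the formative state and Nodal signalling, 5 of 6 fell, with a median of -4.20. The exception was Fgf5, an early marker of the exit from the naive state, which rose from 5.36 to 12.4 FPKM and stayed under its Con_48h mean of 21.4 FPKM. The Fgf5 rise was just past the limit, and with equal library medians its log2 difference was 0.97.

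The FGF-responsive transcription factors Etv4 and Etv5 dipped at day 4. Etv4 was at 43.0 and 40.5 FPKM at 48 h, at 0.609, 0.573 and 0.376 FPKM at day 4, and at a mean of 2.90 FPKM at day 6. Etv5 was at means of 40.0, 2.40 and 8.01 FPKM at the same times. For both, the step from 48 h to day 4 was lower than the next step, by 6.18 on the log2 scale for Etv4 (SE 0.102, adjusted p = 4.33e-17, limma) and by 4.99 for Etv5 (SE 0.0854, adjusted p = 5.92e-17). From day 4 to day 6 Etv4 changed by 1.36 (adjusted p = 2.93e-12, limma) and Etv5 by 1.40 (adjusted p = 2.1e-13, limma).

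Retinoic acid genes were mainly higher, with a feedback enzyme in front. Of the 20 members tested, 13 rose and 1 fell, where 10.4% and 6.88% of all genes did, and the list's median was 1.58. Promoter stretches of the direct target genes Cyp26a1 and Rarb are printed first because both carry the DNA element of the receptor close to the start of transcription. They are the 100 bases before the RefSeq start (build GRCm38.p6), written 5′ to 3′ on the gene's strand, with the hexamers of the element in capitals. The stretches lie at chr19:37697708-37697807 (plus strand) and chr14:16575477-16575576 (minus strand).
Cyp26a1: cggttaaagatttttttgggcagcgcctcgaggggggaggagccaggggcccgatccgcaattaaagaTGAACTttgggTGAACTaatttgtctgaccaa
Rarb: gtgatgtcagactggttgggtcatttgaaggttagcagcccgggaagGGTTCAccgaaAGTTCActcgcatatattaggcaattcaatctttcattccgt

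The element is a direct repeat of hexamers with a spacer of 5 bases. In Cyp26a1 it read AGTTCA on both sides on the strand opposite to the gene and began 32 bases before the start. A search of all RefSeq promoter windows, 250 bases before to 50 after the start, for AGGTCA or AGTTCA hexamers in the same direction on either strand found 13 of 32851 windows (0.0396%). It found 1 of 35 windows of the retinoic acid list, that of Cyp26a1, and none of the 24 windows of the Hox list. None of the 849 genes that rose and had a window, and none of the 579 genes that fell, held it. The Rarb element, GGTTCA and AGTTCA starting 53 bases before the start, was matched only when GGTTCA and GGGTCA were also allowed, a choice made after the values were seen. That wider search matched 32 of 32851 windows (0.0974%) and 2 of 35 in the list. A match is a sequence feature and was not tested for binding.

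The printed genes moved differently. Cyp26a1, the enzyme that clears retinoic acid, was at 118 and 123 FPKM already at 48 h, against a Con_48h mean of 0.860 FPKM, and at 155, 171 and 168 FPKM at day 4. Its log2 difference of 0.45 (SE 0.0571, adjusted p = 1.54e-06, limma) did not reach 2-fold, and by day 6 its mean was 46.9 FPKM. Rarb, the receptor gene under its own ligand's control, was at 2.01 and 1.76 FPKM and then at 6.92, 7.15 and 7.17 FPKM, a rise of 1.49 (SE 0.0655, adjusted p = 1.57e-12), and its Con_48h mean was 0.0502 FPKM. Rarg, which encodes another receptor of the family, fell from 33.9 and 31.02 FPKM to between 14.9 and 15.2 FPKM. Its log2 difference of -1.06 became -0.92 under quantile normalization and was just short of the limit without the first 48 h library.

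Cyp26b1, the related enzyme known for keeping retinoic acid from germ cells in the fetal testis, made the third largest rise of all genes. It was at 0.486 and 0.501 FPKM at 48 h and at 66.8, 72.9 and 69.4 FPKM at day 4 (log2 difference 5.56, SE 0.0715, adjusted p = 4.34e-19, limma), with a Con_48h mean of 0.0637 FPKM. The 48 h libraries with AM580 alone had a mean of 0.886 FPKM. At day 6 Cyp26b1 was back to 34.5 FPKM, so day 4 held its highest mean among 24 h, 48 h, day 4 and day 6. Crabp2, which carries retinoic acid to its receptors, peaked as well, with means of 15.7, 143.8 and 22.7 FPKM at 48 h, day 4 and day 6. Its first step exceeded the second by 5.72 on the log2 scale (SE 0.187, adjusted p = 1.46e-13, limma), and that of Cyp26b1 by 6.56 (SE 0.115, adjusted p = 6.55e-17). From day 4 to day 6 Crabp2 changed by -2.61 (adjusted p = 1.64e-12, limma) and Cyp26b1 by -0.99 (adjusted p = 8.03e-10, limma).

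Enzymes of retinoic acid synthesis rose in part. Aldh1a2, the main synthesizing enzyme of the embryo, was at 1.32 and 1.23 FPKM and then at 10.5, 10.4 and 10.6 FPKM, and its mean was 70.0 FPKM at day 6. Rdh10, which makes the retinal that Aldh1a2 uses, went from 1.92 to 10.1 FPKM, and Dhrs3, which turns retinal back to retinol, from 12.1 to 41.1 FPKM. Rdh11, a retinal reductase, differed by 0.63 and did not pass, and Aldh1a3, another synthesizing enzyme, was too low to be tested, at 0.206 and 0.225 FPKM and then between 0.0571 and 0.0813 FPKM. Stra6, the retinol transporter, went from 2.99 to 12.2 FPKM. Aldh1a1 rose from 0.105 to 8.58 FPKM and its neighbour on chromosome 19, Aldh1a7, from 0.469 to 32.7 FPKM; the sequences of this pair are alike, so the split of fragments between them is uncertain. The cofactors Meis1 (4.95 to 18.99 FPKM) and Meis2 (4.59 to 23.4 FPKM), which pair with Hox proteins on DNA, both rose.

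Hox genes split by cluster. Of 15 tested, 7 rose and 3 fell, where 10.4% and 6.88% of all genes did, and the median was 0.37. All 5 tested Hoxc genes and both tested Hoxd genes rose, no Hoxb gene did, and 3 of the 7 Hoxb genes fell. The summed FPKM of the 7 Hoxb genes was 176 and 200.3 at 48 h and 98.7, 108 and 100.4 at day 4, and that of the 6 Hoxc genes in the table was 9.22 and 10.4 and then 103.0, 106 and 97.2. At 48 h the Hoxb sums were thus far above the Hoxc sums, and at day 4 the clusters were level.

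Hoxc5 changed most. It was at 2.20 and 2.91 FPKM and then at 53.5, 55.5 and 49.9 FPKM, a log2 difference of 3.93 (SE 0.0837, adjusted p = 1.71e-16, limma), with a Con_48h mean of 0.0710 FPKM. Hoxc4 went from 5.01 to 35.1 FPKM, Hoxc9 from 0.390 to 4.87 FPKM, Hoxc8 from 0.542 to 4.52 FPKM and Hoxc6 from 0.841 to 4.11 FPKM. In the annotation the Hoxc5 gene (chromosome 15, 102967443 to 103017429) spans Hoxc6, Hoxc8 and Hoxc9, so fragments in shared stretches cannot be assigned with certainty. Hoxb4 fell from 57.4 and 66.8 FPKM to 26.7, 28.2 and 28.0 FPKM. Hoxb8 fell from a mean of 27.3 to 10.5 FPKM and Hoxb9 from 33.9 to 15.7 FPKM. These falls were small, and those of Hoxb4 and Hoxb9 ended under quantile normalization, at -0.86 and -0.92; that of Hoxb9 also ended without the second 48 h library, at -0.98. At day 4 all 3 were still above their Con_48h means of 0.866, 0.428 and 0.782 FPKM.

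**Figure D2:**
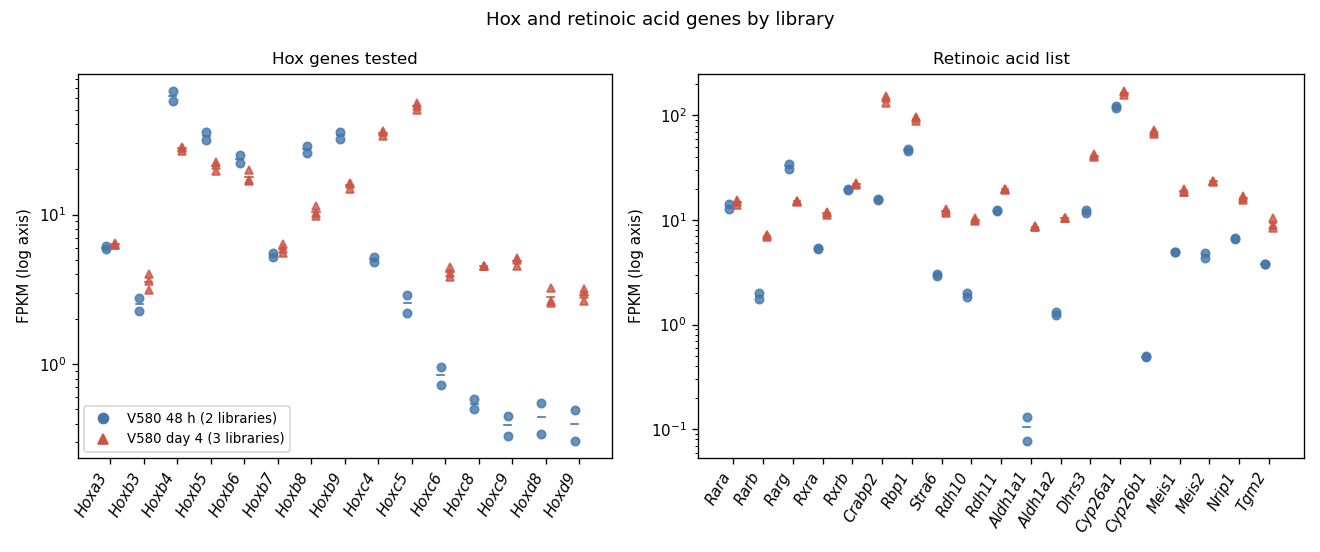
FPKM on a log axis of the 15 Hox genes tested (left) and of 19 of the 20 tested genes of the retinoic acid list (right), one point per library (circles, 2 V580 48 h libraries; triangles, 3 V580 day 4 libraries), with bars at the group means. Hoxb4, Hoxb8 and Hoxb9 are lower at day 4 and all Hoxc and Hoxd genes shown are higher; on the right Cyp26b1 shows the widest gap, 0.493 to 69.7 FPKM.

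Genes of the gonad primordium rose in part. Of 17 members tested, 9 rose and none fell, against 10.4% and 6.88% of all genes, with a median of 1.14. Without the fold limit 15 were higher and 2 lower, where 44.2% and 40.1% of all genes were. The lower ones were Rspo1 (2.81 to 2.00 FPKM, difference -0.35) and Amhr2 (2.15 to 1.25 FPKM, difference -0.48). Gata4, a GATA factor needed for the genital ridge, was at 2.65 and 2.05 FPKM and then at 5.23, 4.75 and 4.84 FPKM; its log2 difference of 0.83 (SE 0.0650, adjusted p = 2.83e-09, limma) was below the fold limit, which it passed with a pseudocount of 0.1 (1.05). Foxl2, the ovarian determination factor, was at 0.138 and 0.286 FPKM, resting on 9 and 17 fragments, and at 1.42, 1.502 and 1.32 FPKM, resting on 105, 121 and 103 fragments. Its log2 difference of 1.00 (SE 0.0843) lay just under the limit, and the ratio of its means was 6.66. With a pseudocount of 0.1 the Foxl2 difference was 2.32 and passed, so its call rests on the pseudocount. It also passed without the second 48 h library (1.08) or the third day 4 library (1.02). Wt1 went from 14.2 to 22.8 FPKM, a difference of 0.64. For none of the 3 did the libraries of the groups overlap. Cd63, which the study used as a surface marker, rose from 24.4 and 22.9 FPKM to 50.5, 49.0 and 46.2 FPKM, with a difference of 1.01 that slipped below the limit under equal medians (0.90) and without the first day 4 library (0.98) or the second 48 h library (0.97).

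The rises of the list were led by Nr2f2, Wnt6 and Nr2f1. Wnt6 was at 1.21 and 1.37 FPKM and then at 45.5, 45.7 and 41.7 FPKM, and Nr2f1 went from 0.157 to 11.04 FPKM. Irx3 was at 1.85 and 1.80 FPKM, then at 17.5, 18.2 and 15.2 FPKM, and at day 6 at a mean of 5.58 FPKM. Wnt4, which supports ovarian fate, reached only 3.41 FPKM at day 4 from 0.791, and Emx2, needed for the gonadal epithelium, 2.10 from 0.243. For Wnt4 and Emx2 the step to day 6 was the larger: the first step was lower than the second by 1.75 for Wnt4 (adjusted p = 1.40e-08, limma) and by 1.25 for Emx2 (adjusted p = 1.01e-07). Nr5a1, the steroidogenic factor of the gonad, was not tested and rested on 2 and 2 fragments at 48 h and on 5, 7 and 5 fragments at day 4.

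**Figure D3:**
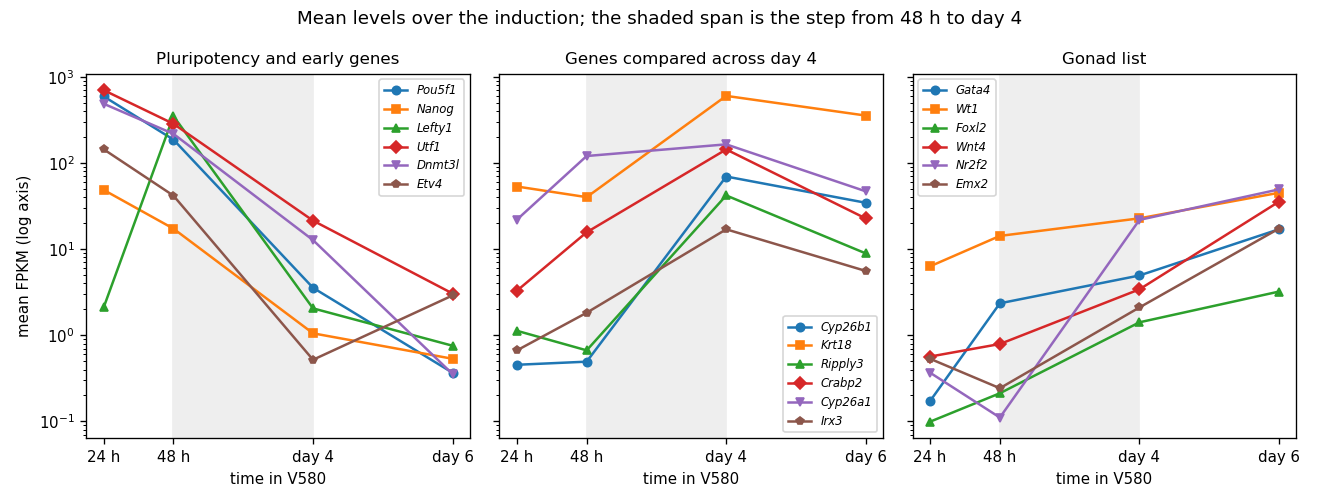
Mean FPKM on a log axis against time in V580 for 6 pluripotency-related genes, 6 genes with a high or a peak at day 4, and 6 genes of the gonad list; each point is the mean of 2 libraries (24 h, 48 h) or 3 libraries (day 4, day 6). The shaded span is the step described: Pou5f1 drops from 187 to 3.56 FPKM, Crabp2 peaks at 143.8 FPKM, and Wnt4 climbs mainly after day 4, to 35.6 FPKM.

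Epithelial genes rose in 8 of 15 cases and mesenchymal genes in 2 of 14, where 10.4% of all genes rose. Of the 15 genes of junctions and keratins, none fell, and the median was 1.57. Krt18 was at 41.2 and 39.1 FPKM at 48 h and at 626, 586 and 593 FPKM at day 4, and its partner Krt8 at 40.1 and 43.4 FPKM and then at 548, 497 and 488 FPKM. Both peaked at day 4, with day 6 means of 356 FPKM and 315 FPKM (first step above the second by 4.63 and 4.28, adjusted p = 1.19e-16 and 7.31e-15, limma). From day 4 to day 6 they changed by -0.76 and -0.70 (adjusted p = 5.56e-10 and 3.31e-08, limma). Dsp, the plaque protein of desmosomes, went from 1.16 to 17.7 FPKM, Krt7 from 1.67 to 21.7 FPKM, and the tight junction genes Cldn3, Cldn4 and Cldn7 from 12.2, 57.1 and 12.6 to 38.3, 202.3 and 50.8 FPKM. Epcam, which both ESCs and epithelia make, was at 155 and 159 FPKM and then at 155, 159 and 154 FPKM, and E-cadherin (Cdh1) at means of 135 and 213 FPKM. Only Snai2 (0.435 to 2.43 FPKM) and the tropomyosin Tpm1 (58.7 to 169.5 FPKM) rose among 14 mesenchymal and contractile genes, a share near the 10.4% of all genes, and none fell. Without the fold limit 8 of the 14 were higher and none lower, where 44.2% and 40.1% of all genes were. Among the 8 were Twist1 (7.60 to 15.97 FPKM), Cdh2 (2.84 to 6.39 FPKM) and Myl9 (38.9 to 69.9 FPKM), with differences of 0.98, 0.94 and 0.83. With a pseudocount of 0.1 Twist1 and Cdh2 passed (1.07 and 1.14), and Twist1 also passed without the second 48 h library (1.08) or the third day 4 library (1.01). Vimentin (Vim) lay at 52.2 and 54.1 FPKM and then between 50.8 and 53.7 FPKM.

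Basement membrane genes and endoderm regulators rose in part. Of 17 basement membrane and endocytic genes 8 rose and none fell, against 10.4% and 6.88% of all genes, with a median of 0.98. The type IV collagen chains Col4a1 and Col4a2 went from means of 23.8 and 14.9 to 74.3 and 72.8 FPKM, and the collagen chaperone Serpinh1 from 96.03 to 409.5 FPKM. The laminin chain Lama1 was at 3.29 and 2.61 FPKM and then at 24.9, 19.9 and 21.9 FPKM, while Lamb1 and Lamc1 gave differences of 0.98 and 0.66. Plat, a secreted protease, went from 1.52 to 23.8 FPKM. Among the regulators, Foxa2 was at 0.570 and 0.323 FPKM and then at 14.1, 12.2 and 12.0 FPKM, and Sox17, Gata6 and Pdgfra went from 0.581, 1.25 and 0.610 to 6.27, 7.36 and 2.98 FPKM. These 4 of 7 rose and none fell. Without the fold limit 3 of the 17 genes and 1 of the 7 regulators were lower, against 40.1% of all genes. They were Amn (1.77 to 0.713 FPKM), Lrp2 (13.1 to 7.97 FPKM), Thbd (2.07 to 1.39 FPKM) and Foxq1 (1.27 to 0.440 FPKM). Amn and Foxq1 passed with a pseudocount of 0.1 (-1.23 and -1.32). Sox7, which was not tested, was at means of 0.999 and 0.540 FPKM. Of 17 listed yolk-sac and liver secreted proteins, 5 had FPKM values and only 3 were tested, so most of the list was not seen. None of the 3 rose, and Apoa2 fell from 33.1 to 6.83 FPKM. Below the fold limit Mttp was higher (2.51 to 3.16 FPKM) and Apoe lower (255 to 162 FPKM).

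Wnt and BMP genes rose in part, and none fell. In the Wnt list 12 of 21 rose, against 10.4% of all genes, with a median of 1.11. Of the ligands, Wnt11 went from 0.460 to 5.83 FPKM and Wnt7b from 1.74 to 6.99 FPKM, beside Wnt6 above. Of the receptors, Fzd2 was at 12.7 and 14.5 FPKM and then at 81.7, 79.0 and 76.4 FPKM, and Fzd1, Fzd4 and Fzd7 rose 5.55-, 3.05- and 2.21-fold by the ratio of their means. Feedback inhibitors made by Wnt-responsive cells rose too, Notum from 0.184 to 9.50 FPKM and Nkd1 from 1.38 to 9.71 FPKM, whereas Axin2, the standard readout of the pathway, gave a difference of 0.67 (5.31 to 9.05 FPKM).

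In the BMP list 12 of 16 rose, against 10.4% of all genes, with a median of 1.17. The ligands Bmp2, Bmp4 and Bmp7 went from 0.117, 1.11 and 1.42 to 3.01, 12.8 and 10.8 FPKM. Bmp4 had already been at a mean of 13.6 FPKM at 24 h, and was at 8.59 FPKM at day 6. Bmpr1a, a type I receptor, was at 15.8 and 16.6 FPKM and then at 38.0, 37.6 and 39.9 FPKM. The targets Id1 and Id3 went from 48.6 and 44.5 to 144.5 and 115 FPKM, Msx2 from 0.901 to 7.13 FPKM, and Smad6, an inhibitory SMAD, from 7.95 to 17.6 FPKM. Nog, which traps BMP ligands, was at 0.501 and 0.420 FPKM and then at 7.44, 6.82 and 5.68 FPKM. The Smad6 rise of 1.05 was near the limit and became 0.94 with equal library medians, 0.98 under quantile normalization and 0.85 with length and GC trends removed.

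**Figure D4:**
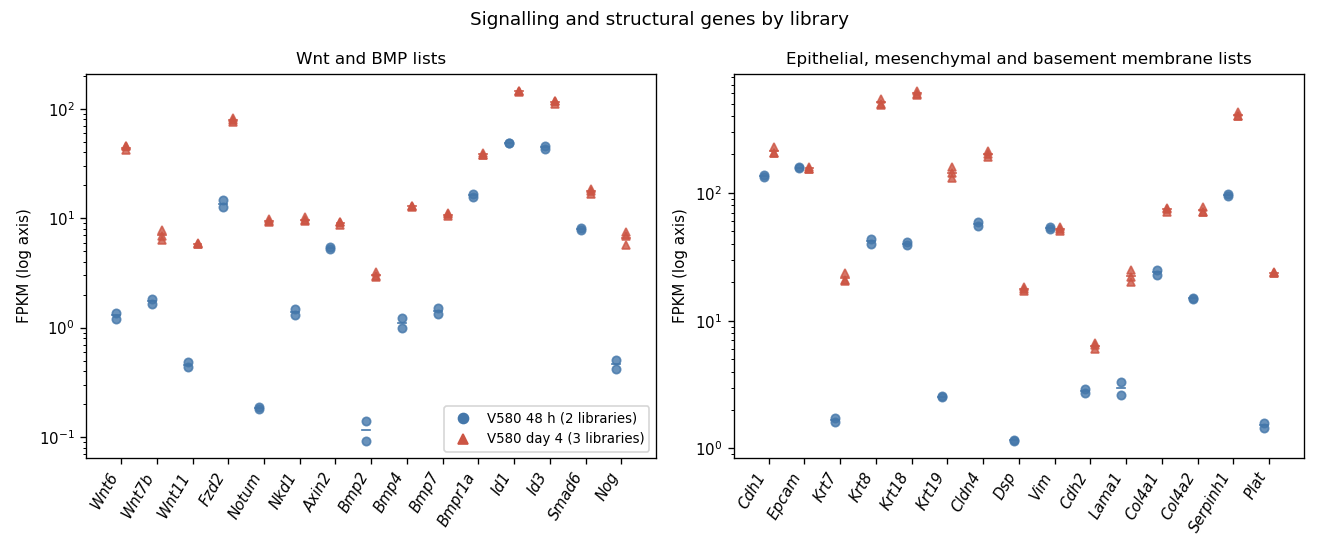
FPKM on a log axis of 15 genes of the Wnt and BMP lists (left) and 15 epithelial, mesenchymal and basement membrane genes (right), one point per library (circles, 2 V580 48 h libraries; triangles, 3 V580 day 4 libraries), with bars at the group means. Nog climbs from 0.461 to 6.65 FPKM and Krt18 from 40.1 to 602 FPKM, while Epcam and Vim lie at the same level in both groups.

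Hippo genes rose in part. Of 20 tested, 8 rose and 2 fell, where 10.4% and 6.88% of all genes did, with a median of 0.70. The count of falls is near the share among all genes. The DNA-binding partners Tead1, Tead3 and Tead4 rose from 10.7, 1.77 and 2.01 to 27.2, 9.09 and 6.88 FPKM, and the coactivator Wwtr1 from 12.4 to 28.1 FPKM, while Yap1 was at means of 36.9 and 32.2 FPKM. The target genes parted: Cyr61 rose from 96.2 to 251 FPKM and Amotl2 from 39.7 to 106 FPKM, and Ctgf fell from 82.5 and 89.0 FPKM to 17.4, 16.4 and 16.1 FPKM and Ankrd1 from 19.08 to 4.39 FPKM.

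Of 9 genes that add, keep or remove DNA methylation 4 fell and 1 rose, where 6.88% and 10.4% of all genes did. The count of rises is near the share among all genes. The median member was lower by close to 2-fold. Dnmt3l, the cofactor of the de novo methyltransferases, was at 217 and 219 FPKM and then at 14.4, 12.9 and 10.9 FPKM (log2 difference -4.00, SE 0.0814, adjusted p = 9.33e-17, limma). Dnmt3b went from 68.5 to 16.4 FPKM and Dnmt3a from 34.9 to 11.3 FPKM. Of the TET enzymes, which need vitamin C, Tet1 fell from 9.92 to 3.22 FPKM and Tet3 rose from 1.77 to 5.72 FPKM. Tet2 was tested and did not pass. Among 11 genes of vitamin C transport and vitamin C-dependent hydroxylases, Egln1 rose (11.1 to 27.2 FPKM) and Egln3 (6.48 to 1.57 FPKM) and the transporter Slc23a1 (3.35 to 0.259 FPKM) fell. The median of this list was 0.32, and its counts stand against 10.4% higher and 6.88% lower among all genes.

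Of 25 cell cycle and replication genes 5 rose and 5 fell, where 10.4% and 6.88% of all genes did, with a median of -0.40. All 5 that rose were inhibitors of cyclin-dependent kinases. Cdkn2b was at 4.82 and 5.16 FPKM and then at 26.2, 22.6 and 20.6 FPKM, and Cdkn1a, Cdkn1b, Cdkn1c and Cdkn2a rose 2.36-, 2.75-, 2.22- and 2.54-fold by the ratio of their means. The G1 cyclins Ccne1 and Ccnd1 fell from 111 and 23.0 to 33.2 and 5.64 FPKM, and Mcm2, Mcm5 and Pcna from 100.8, 120.3 and 194.2 to 47.2, 52.6 and 95.5 FPKM. The last 3 fell less than 2-fold under quantile normalization, with differences of -0.75, -0.81 and -0.65. The other replication genes Mcm3, Mcm4, Mcm6, Mcm7 and Cdc6 differed by -0.64 to -0.90 and did not pass. Pcna was also just short of 2-fold without the second 48 h or the third day 4 library.

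Glycolysis genes fell where they changed. Of 16 tested 7 fell and none rose, against 6.88% and 10.4% of all genes, with a median of -0.73. Hk2, which commits glucose to the pathway, was at 42.1 and 40.9 FPKM and then at 9.56, 9.65 and 10.1 FPKM. Ldha, which makes lactate, went from 271 to 72.5 FPKM, Pkm from 631 to 223 FPKM and Pdk1, which keeps pyruvate out of the mitochondria, from 12.1 to 4.04 FPKM. None of the 14 cholesterol synthesis genes passed the 2-fold limit. Without it 10 were higher and 2 lower, where 44.2% and 40.1% of all genes were. Imprinted genes went up in 7 of 13 cases and down in 1, against 10.4% and 6.88% of all genes, with a median of 1.08. Peg3 was at 27.2 and 27.9 FPKM and then at 180, 171 and 184 FPKM, Igf2 went from 1.07 to 12.9 FPKM, Dlk1 from 5.37 to 44.4 FPKM and Plagl1 from 2.25 to 21.3 FPKM. Snrpn was the one that fell, from 25.6 to 10.5 FPKM.

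**Figure D5:**
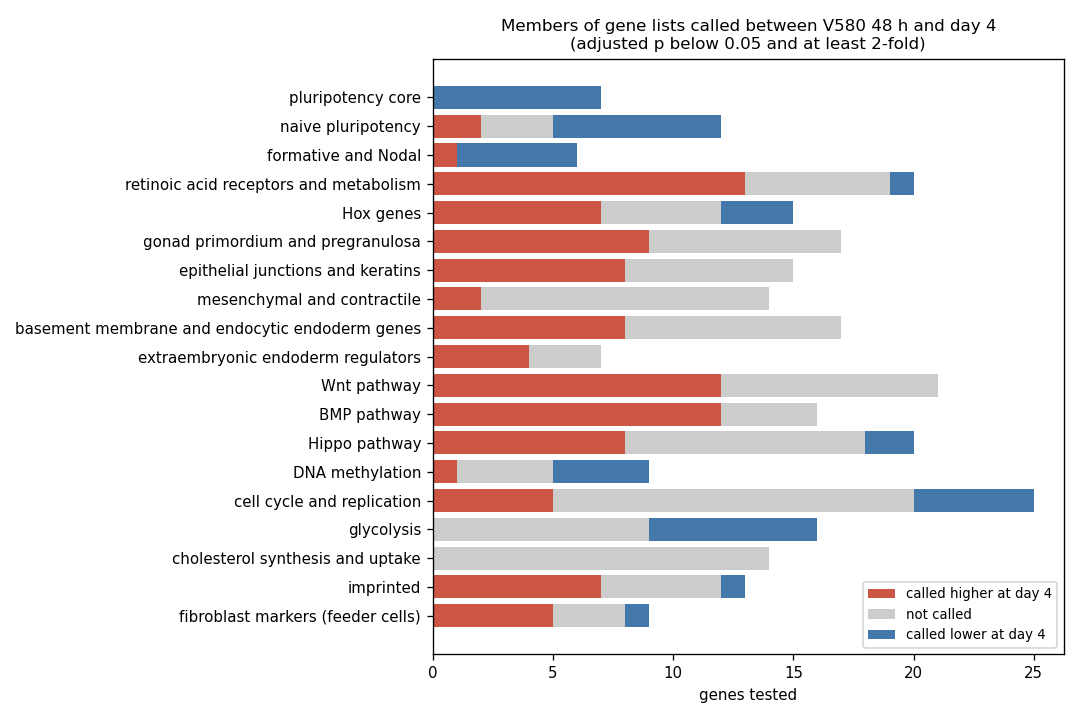
Number of tested genes called higher, not called and called lower at V580 day 4 against 48 h in 19 gene lists; a call is an adjusted p below 0.05 (limma) and at least 2-fold. All 7 core pluripotency genes are lower, 13 of 20 retinoic acid genes are higher, and none of the 14 cholesterol genes is called; over all genes 10.4% are called higher and 6.88% lower.

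Markers of other cell types moved with the step in places. Of 9 fibroblast markers tested 5 rose and 1 fell, where 10.4% and 6.88% of all genes did, with a median of 1.03. The summed FPKM of the 14 fibroblast markers was 56.0 to 59.7 at 48 h, 96.7 to 109.5 at day 4 and 224 to 233 at day 6, against 179 to 189 at 24 h, and none of the 14 was at 0 in all 5 libraries. Col3a1 rose from 1.59 to 8.08 FPKM and Col1a2 from 6.75 to 21.3 FPKM, while Lox fell from 13.2 to 5.64 FPKM and Thy1 was at means of 4.10 and 2.10 FPKM. The part of feeder cells in the collagen and Serpinh1 values was not tested. The summed mesothelial markers went from 12.0 to 13.1 FPKM up to 172 to 200.4 FPKM, most of it Krt19, and Upk3b from 0.184 and 0.124 FPKM to 22.5, 22.6 and 22.4 FPKM. Of 3 endothelial and blood genes tested 2 fell, Pecam1 from 5.67 to 0.109 FPKM and Lmo2 from 5.66 to 0.411 FPKM. The receptor Kdr went the other way, from 0.122 to 1.03 FPKM, after a mean of 1.01 FPKM at 24 h in V580. Its difference of 0.85 (adjusted p = 1.06e-11, limma) did not reach 2-fold but was 2.35 with a pseudocount of 0.1. Cdh5, which was not tested, was at means of 0.0575 and 0.184 FPKM. Neural genes split, Tubb3 (15.4 to 2.14 FPKM) and Stmn2 (4.47 to 0.345 FPKM) falling and Nes (8.41 to 20.3 FPKM) and Sox11 (4.85 to 13.0 FPKM) rising. Of 6 placental markers 3 rose and 1 fell, against 10.4% and 6.88% of all genes. Gata3 (1.88 to 6.16 FPKM) and Gata2 (1.33 to 6.21 FPKM) were among the rises, and Eomes fell from 3.45 to 0.415 FPKM. At 24 h in V580 Gata3 had been at a mean of 7.94 FPKM and Gata2 at 0.571 FPKM. In the germline list 1 of 6 rose and 2 fell, where 10.4% and 6.88% of all genes did. Rec8, the meiotic cohesin, was at 12.4 and 13.3 FPKM and then at 72.9, 74.3 and 70.3 FPKM. Sycp3 fell from 3.22 to 0.906 FPKM and Tex19.1 from 69.6 to 21.2 FPKM. Means of Rec8 were 1.74 FPKM at 24 h and 39.7 FPKM at day 6, and its first step exceeded the next by 3.26 (adjusted p = 1.15e-15, limma). Y-linked genes, Xist and mitochondrial transcripts were not analysed here.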

How the data were processed

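The submitters' processing notes name mm10, Trim Galore, FastQC, HISAT2, SAMtools, featureCounts and RSEM, without versions; the tool that made the FPKM values and whether counting used strand are not given in the sources used here. The authors deposited FPKM values for 13682 genes. The other 3 files of the series were not used here. FPKM of the 5 libraries was tested on log2(FPKM + 1) with limma 3.58.1 (R 4.3.3, trend) in a model of all 16 V580 bulk libraries, for 10742 genes with at least 1 FPKM in at least 2 of the 5 libraries. Calls needed a Benjamini-Hochberg adjusted p below 0.05 and 2-fold. For peaks and dips at day 4, the step from 48 h to day 4 less the step to day 6 was tested in the same model. A large first step alone can make this difference large, so the step from day 4 to day 6 was also tested. Fragments were rebuilt from FPKM and GENCODE vM21 gene length: 97.4% to 97.8% of values up to 10 fragments were whole within 0.05. Lists were described by counts and medians, without a test. The 10 largest rises and falls among called genes with a mean of at least 5 FPKM, the members of the lists and 6 genes of the study were named; others were chosen after their values were seen, and some genes are not reported here. Members, lists and tests were chosen with earlier results of these data known. The fit was tested on simulated data: for V580_D4 against V580_48h, 200 of 200 planted genes were called among 10087. All planted changes were past 2-fold and in genes with at least 5 FPKM at 48 h. The simulation therefore cannot speak to calls near the fold limit or in low genes. Promoters came from RefSeq (GRCm38.p6).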

Additional observations from a re-analysis of the deposited data

How the results depend on the processing

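Apart from 3 settings, the count of 1855 calls stayed within 1.5 times, from 1479 when at least 5 FPKM was asked to 2722 with a pseudocount of 0.1. Without the fold limit 9047 genes were called, at 4-fold 293, and with limma-voom on rebuilt fragments, an alternative added after seeing the data, 2822. Equal library medians gave 1889 calls, 48.8% of them higher in place of 60.2%, and 1661 shared with the 1855; quantile normalization gave 1705. Leaving out single libraries gave 1768 to 1869. Replicate numbers 1 and 2 did not pair the libraries (correlation of same-numbered deviations -0.126 and -0.014), and with the replicate block 1860 genes were called, 1834 of them shared. Differences rose with gene length (median -0.20 in the shortest 10% of genes, 0.17 in the longest) and GC content (-0.07 and 0.27); with both trends removed 1797 were called. Flat genes changed sign: Epcam gave 0.39 (quantile), 0.01 (replicate block), -0.03 to 0.00 (leaving out single libraries) and 0.09 (trends removed), and Vim 0.25 (quantile), -0.05 to 0.00 (leaving out single libraries) and 0.04 (trends removed). Gapdh, whose libraries overlapped, ranged from -2.67 without the second 48 h library to 1.64 without the first, and gave 0.32 without the first day 4 library. The cause was not tested.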

Other observations

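The genes below other than Fos and Fosb were chosen after their values were seen, so no statement on a group rests on them. Among immediate early genes, which cells switch on within minutes of a stimulus, Fos was at 1.91 and 1.75 FPKM at 48 h and at 155, 158 and 156 FPKM at day 4, and Fosb went from 0.274 to 57.2 FPKM. Egr1 went from 4.92 to 100.4 FPKM, Jun from 15.3 to 142 FPKM, Atf3 from 2.31 to 31.6 FPKM and Junb from 5.37 to 34.6 FPKM. Jund and Ier2 differed by 0.71 and 0.42 on the log2 scale and did not pass. Means at day 6 were higher again, 338 FPKM for Fos and 231 FPKM for Egr1. Of the feedback inhibitors of ERK signalling looked at, Spry4 was at 11.3 and 10.9 FPKM and then at 0.574, 0.555 and 0.546 FPKM, Dusp6 fell from 173.9 to 41.9 FPKM and Spry2 from 50.8 to 17.7 FPKM.

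Single genes of amino acid supply and one-carbon metabolism were looked at as well. Cth, which makes cysteine, was at 32.3 and 30.6 FPKM and then at 2.66, 2.61 and 2.60 FPKM. Mthfd2 fell from 70.5 to 9.53 FPKM, and the amino acid transporters Slc7a3 and Slc7a5 from 31.1 and 112 to 2.85 and 25.1 FPKM. Atf4, the transcription factor that drives many such genes, fell from 157.6 to 71.1 FPKM, and its difference of -1.14 became -0.76 under quantile normalization. Asns and Phgdh gave -0.91 and -0.37 and did not pass 2-fold.

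Gapdh, which has many processed pseudogenes, was listed at 76.1 and 2.87 FPKM at 48 h and at 2.77, 16.4 and 25.8 FPKM at day 4. The groups overlapped, and the log2 difference was -0.52 (SE 1.35, adjusted p = 0.727, limma).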
